A study of Sus scrofa with 3 samples.

Results

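The genes described here were the matrix proteases and their inhibitors of visceral adipose tissue (VAT), which were the matrix metalloproteinases (MMP), the ADAM and ADAMTS proteases, the ADAMTS-like proteins (ADAMTSL) and the tissue inhibitors of metalloproteinases (TIMP). They were chosen by name alone: a gene of type mRNA was taken when its deposited symbol was one of these family names followed by a number. The rule found 63 genes among 22826 mRNA genes, namely 18 MMP, 19 ADAM, 19 ADAMTS, 5 ADAMTSL and 2 TIMP genes. The tissue was retroperitoneal fat of male Wuzhishan miniature pigs, a small Chinese breed, obtained at an age of 6 to 7 months and kept for 7 weeks before the groups were formed. All pigs received an HFC diet, rich in fat and cholesterol, for 12 weeks, so there was no group on a normal diet. Intact male pigs (IM) had skin incisions only, castrated male pigs (CM) were gonadectomized, and castrated pigs with testosterone replacement (CMT) were given 10 mg/kg testosterone propionate by weekly injection into muscle. Total RNA was pooled within each group before sequencing, from 4 to 6 pigs by the sample labels and from 4 pigs by the study's methods, and each group was 1 library. No value below therefore has a replicate, and variation between pigs cannot be seen.

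Matrix proteases cut the proteins that surround fat cells, and fat tissue needs them when its cells enlarge and new vessels form. MMPs are zinc enzymes that are made as inactive precursors, and TIMPs bind the active enzymes and block them. ADAMs sit in the cell membrane and release growth factors, cytokines and receptors from the cell surface, while secreted ADAMTS enzymes cut proteoglycans and trim procollagens. ADAMTSL proteins resemble the ADAMTS enzymes without their protease domain and bind to microfibrils. Because the pools were bulk tissue, fewer cells of a type and less RNA per cell cannot be told apart.

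Expression was given as UQRPKM, which is reads times 100000, divided by the gene length in bases and by the library's upper quartile. Whole reads could be recovered behind every value, and they came to between 13449107 and 14844063 on mRNA genes per library. The 63 genes held 0.468% (IM), 0.419% (CM) and 0.481% (CMT) of these reads. At the median recovered length of the 63 genes, 2832 bases, 3 reads corresponded to 0.711 (IM), 0.746 (CM) and 0.726 (CMT) UQRPKM. Ratios are written as CM/IM, CMT/CM and CMT/IM, and their 95% intervals (Clopper-Pearson, exact) were computed from these reads and cover counting error only. Known marker genes of other tissues differed between the pools. Of 7 hepatocyte genes, APOA1 had 2539 (IM), 2339 (CM) and 1714 (CMT) UQRPKM, whereas the other 6 summed to 15.7, 6653 and 21.0. The summed level of 7 skeletal muscle genes was 78.8, 62.6 and 5561. The 4 adipocyte genes found of 6 listed summed to between 89225 and 108487 UQRPKM, most of it from ADIPOQ, which encodes adiponectin, between 63873 and 74928 UQRPKM. The other 3 were each highest in CM and lowest in CMT, by unlike amounts. For CIDEC, IM and CM were within counting error of each other, and so were IM and CMT for LEP. LEP had 167 (IM), 502 (CM) and 156 (CMT) UQRPKM. PLIN1 had 18397, 18587 and 12504, and CIDEC 14996, 15020 and 12692.

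Of the 63 genes, 54 were above 0 in at least 1 library and 42 reached 1 UQRPKM in all 3 libraries. MMP2 and TIMP2 were the most abundant. MMP2, gelatinase A, which cuts denatured and basement membrane collagen, had 5364 (IM), 4611 (CM) and 5564 (CMT) UQRPKM. It ranked between 179 and 210 among the mRNA genes of a library. TIMP2, which inhibits MMP2 and also takes part in its activation on the cell surface, had 3254, 2828 and 3221 UQRPKM. Together this pair made up 57.0% (IM), 57.1% (CM) and 60.9% (CMT) of the summed UQRPKM of the 63 genes.

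The next levels were those of MMP14, MMP19, ADAM15, TIMP1, ADAMTS2 and ADAMTS12, whose values lay between 316 and 854 UQRPKM. In all, 18 genes reached 100 UQRPKM in at least 1 library. A further 12 genes were above 0 somewhere but under 1 UQRPKM in at least 1 library, and these were MMP3, MMP8, MMP12, MMP21, ADAM2, ADAM7, ADAM11, ADAM21, ADAM30, ADAM32, ADAMTS3 and ADAMTS19. The other 9 genes, which were MMP1, MMP7, MMP24, MMP25, MMP26, ADAM5, ADAM18, ADAM20 and ADAM29, had the value 0 in every library. That value need not mean absence, since CTSD and BSG, which most cells use, carried it too.

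**Figure D1:**
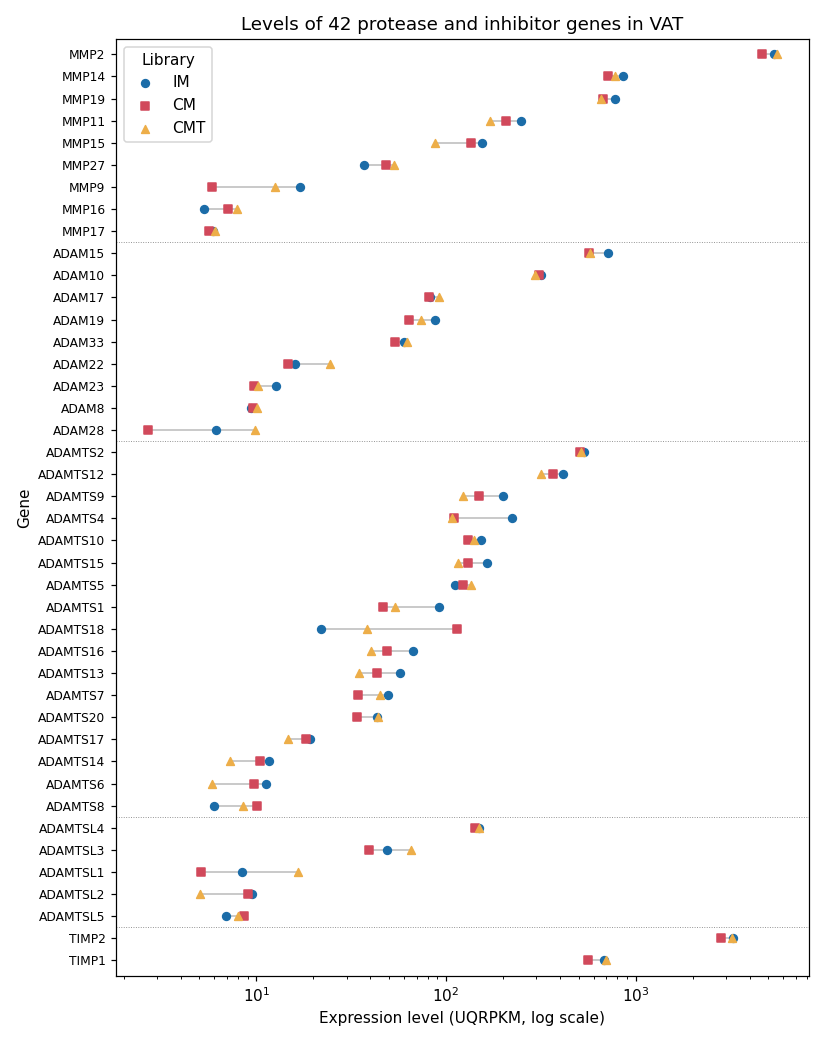
Levels of the 42 genes with at least 1 UQRPKM in all 3 libraries. Each row is a gene, the horizontal axis is the UQRPKM value on a log scale, and the markers are the IM, CM and CMT libraries, with no replicates. MMP2 and TIMP2 lie farthest to the right, and the markers of ADAMTS18, ADAM28 and ADAMTSL1 spread most.

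Seen as a whole, the set was slightly lower in CM than in IM. Of the 42 genes that reached 1 UQRPKM in both, 35 were lower and 7 higher in CM, which is 83.3% lower against 56.8% of 14123 mRNA genes. The median log2 ratio of the set was -0.20, beside -0.06 for all mRNA genes, with quartiles at -0.38 and -0.08. With at least 10 UQRPKM in 1 of the libraries, the medians were -0.22 for 35 genes of the set and -0.06 for all mRNA genes. The summed UQRPKM of the 63 genes differed by -13.9% in CM relative to IM, and the sums of the families differed by -14.0% (MMP), -15.1% (ADAM), -13.3% (ADAMTS), -8.79% (ADAMTSL) and -13.8% (TIMP). Single genes weigh heavily in such sums. In IM, MMP2 gave 5364 of the 7463 UQRPKM of the MMP family, and TIMP2 3254 of the 3934 of the TIMP family. All of these differences are small and between single libraries, and most of the genes lay well inside a 1.5-fold range.

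In CMT versus CM the set leaned the other way, with 27 of 44 genes higher and 17 lower in CMT. That is 38.6% lower, against 52.7% of 14098 mRNA genes. The median log2 ratio was 0.09, beside -0.02 for all mRNA genes. In CMT versus IM, 20 genes were higher and 24 lower, which is 54.5% lower against 58.0% of 14151 mRNA genes. The medians were -0.09 for the set and -0.08 for all mRNA genes. The comparisons share libraries, so their ratios are not independent of each other.

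**Figure D2:**
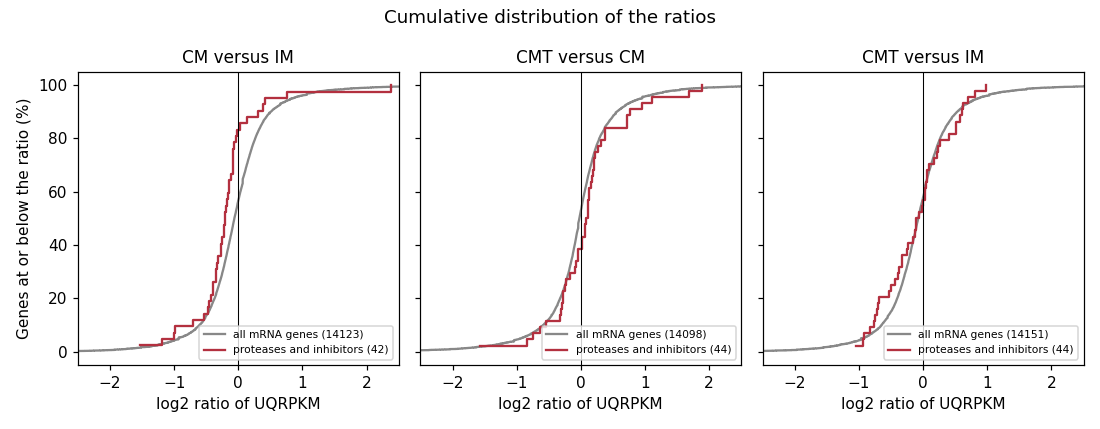
Cumulative distributions of the log2 ratio of UQRPKM in the 3 comparisons. The horizontal axis is the log2 ratio and the vertical axis the percentage of genes at or below it, for the proteases and inhibitors (42, 44 and 44 genes) and for all mRNA genes that reached 1 UQRPKM in both. In CM versus IM the curve of the set lies to the left of that of all mRNA genes around 0, and 83.3% of the set falls below 0.

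The order of the libraries gives another view of these same levels. Among the 42 genes at 1 UQRPKM or more in every library, IM held the highest value of 24, CM of 3 and CMT of 15. Over all such mRNA genes, these shares were 42.8%, 29.1% and 28.1%. The lowest value was found in IM for 7 genes, in CM for 21 and in CMT for 14, beside 27.5%, 33.5% and 39.0% of all such mRNA genes. The 3 genes highest in CM were ADAMTS18, ADAMTS8 and ADAMTSL5. Such orders take no account of counting error. The CMT/CM log2 intervals of ADAMTS8 (-0.85 to 0.35) and ADAMTSL5 (-0.95 to 0.75) included no difference. ADAMTSL4 had 149.979 UQRPKM in IM and 149.987 in CMT.

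A gene was called different when its levels differed 1.5-fold or more and neither was under 1 UQRPKM. In CM versus IM, 2 of 42 genes were called higher and 5 lower, which is 4.76% and 11.9%, beside 8.38% and 10.4% of all mRNA genes. These shares are near the background or below it. The intervals of all 7 genes left out a ratio of 1, which held for 5.08% of all mRNA genes in the higher direction and for 6.65% in the lower direction. ADAMTS18 and ADAMTS8 were the higher genes, and MMP9, ADAM28, ADAMTS4, ADAMTS1 and ADAMTSL1 the lower ones.

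In CMT versus CM, 7 of 44 genes were called higher and 4 lower, which is 15.9% and 9.09%, beside 9.53% and 9.97% of all mRNA genes. With an interval that left out a ratio of 1, 5 genes were higher and 4 lower, beside 5.94% and 6.46%. The higher genes were ADAMTSL1, ADAMTSL3, MMP9, ADAM28 and ADAM22, with ADAMTS3 and ADAM7 past the fold alone, and the lower ones ADAMTSL2, ADAMTS18, ADAMTS6 and MMP15. In CMT versus IM, 5 of 44 genes were called higher and 9 lower, which is 11.4% and 20.5%, beside 8.81% and 11.9%. Such an interval was held by 3 of the higher genes (ADAMTSL1, ADAMTS18 and ADAM22, and not ADAM28 or ADAM11) and by all 9 lower ones, beside 5.26% and 8.2%. The share called lower in CMT versus IM, 20.5%, was the farthest from its background, and at a fold of 2 the count went from 9 to 1, ADAMTS4 alone. Of the 9 genes 7 belonged to the ADAMTS family, which also held 18 of the 44 genes tested.

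**Figure D3:**
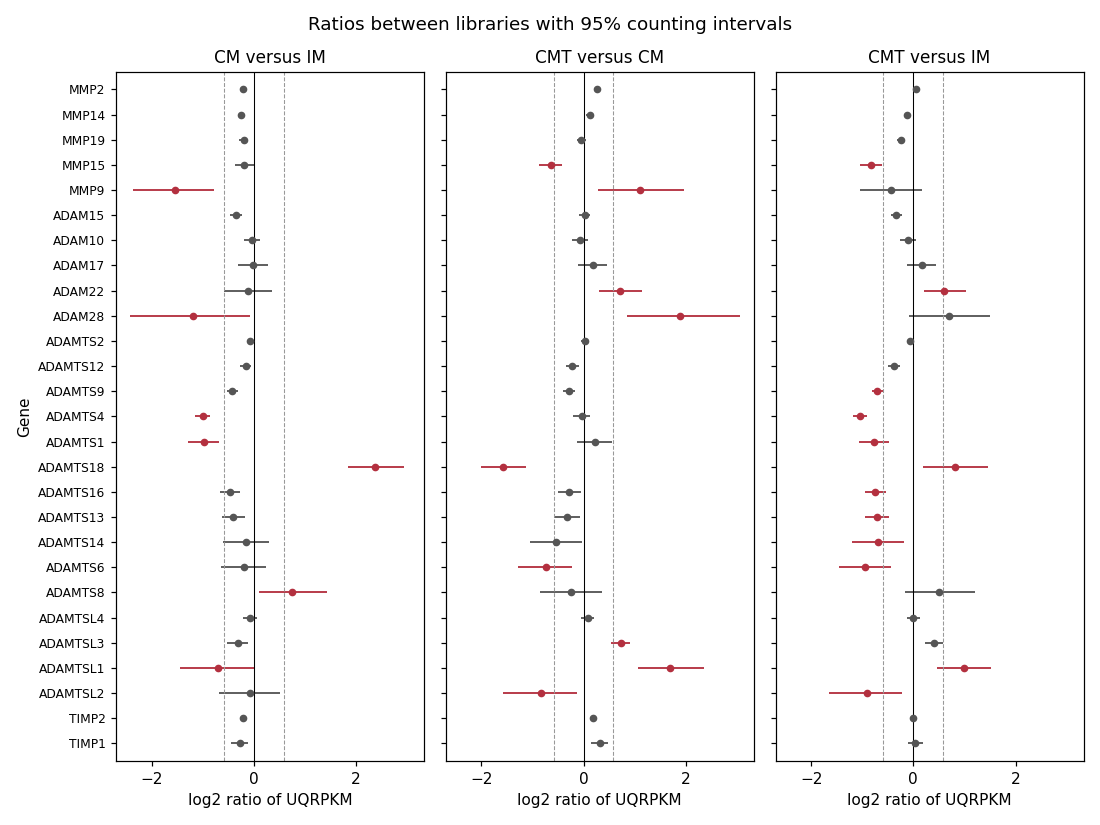
Log2 ratios of UQRPKM for 27 named genes in the 3 comparisons, 1 panel each. Points are ratios, bars are 95% intervals for counting error only, dashed lines mark a 1.5-fold difference, and red points are genes past that fold whose interval leaves out 0. MMP2, MMP14, MMP19 and both TIMPs stay between the dashed lines in every panel.

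The gelatinases MMP2 and MMP9 differed in how far apart the libraries lay. The log2 ratio of MMP2 was -0.22 for CM/IM (95% interval -0.25 to -0.19) and 0.27 for CMT/CM (0.24 to 0.30), well under 1.5-fold. MMP9, gelatinase B, which is made by neutrophils and macrophages, had 16.9 (IM), 5.81 (CM) and 12.5 (CMT) UQRPKM, resting on 58, 19 and 42 reads. Its log2 ratio was -1.54 for CM/IM (-2.37 to -0.77) and 1.10 for CMT/CM (0.29 to 1.97). The CM library was thus the low one, and IM and CMT differed by less than the counting error (-0.44, interval -1.04 to 0.16). Even in IM the level of MMP9 was only 0.00315 times that of MMP2, and in CM it was 0.00126 times.

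The 3 S100 genes listed for neutrophils were highest in CM, where MMP9 was lowest, and macrophage genes were mixed. S100A8, S100A9 and S100A12, calcium-binding proteins of neutrophils, together had 499 (IM), 4878 (CM) and 960 (CMT) UQRPKM. The 6 macrophage genes summed to 847, 882 and 733, with a median CM/IM log2 ratio of 0.02 and CD163 listed at 0. EMR1 (45.6, 93.6 and 30.6 UQRPKM) and LOC100520753 were higher in CM than in IM, CSF1R was lower (285, 246 and 221), and the CM/IM intervals of MRC1 and CD14 included 0. MMP8, the collagenase stored by neutrophils, had 0 (IM), 2 (CM) and 6 (CMT) reads. The part of these cells in the level of MMP9 was not tested.

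The membrane-anchored MMPs act at the cell surface. MMP14, which activates the precursor of MMP2, had 854 (IM), 719 (CM) and 780 (CMT) UQRPKM, with log2 ratios between -0.25 and 0.12. MMP15, a relative of MMP14, had 155 UQRPKM in IM and 136 in CM but 87.3 in CMT, resting on 492, 413 and 272 reads. It was low in CMT against both other libraries, with log2 ratios of -0.64 versus CM (-0.87 to -0.42) and -0.83 versus IM (-1.04 to -0.61). MMP16 and MMP17 lay between 5.30 and 7.87 UQRPKM with at most 41 reads, and the intervals of their ratios all included 0. MMP24 and MMP25 were listed at 0.

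Among the other MMPs, MMP19 had 776, 675 and 655 UQRPKM in IM, CM and CMT, and its log2 ratio was -0.20 for CM/IM. MMP11, stromelysin-3, which is made by stromal cells, had 249, 207 and 171 UQRPKM and was 0.54 lower on the log2 scale in CMT than in IM (-0.70 to -0.38), just under the 1.5-fold limit. MMP27 ran the other way, with 37.2, 48.4 and 53.1 UQRPKM, and its log2 ratio was 0.51 for CMT/IM (0.13 to 0.90) and 0.38 for CM/IM (-0.01 to 0.77), both under the limit.

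MMP3, stromelysin-1, which cuts proteoglycans and activates other MMPs, was the only member of the set that was listed at 0 in 2 libraries and had more than 10 reads in the third. In IM and CM it had 0 reads, and in CMT 32 reads, which is 13.4 UQRPKM. At the length of this gene, 3 reads would have given 1.23 UQRPKM in IM and 1.29 in CM. CMT was also the library with the highest levels of mesothelial genes such as MSLN (6.47, 15.4 and 59.5 UQRPKM) and UPK3B (4.93, 27.4 and 46.4), and of skeletal muscle genes such as ACTA1 (49.8, 39.8 and 3589). The summed level of 6 mesothelial genes was 121, 205 and 495 UQRPKM, with LRRN4 listed at 0 and KRT18 lower in CMT. The part of these tissues in MMP3 was not tested.

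In the RefSeq gene order of the pig assembly Sscrofa11.1, MMP27, MMP8, MMP1, MMP3 and MMP12 are consecutive protein-coding genes, with MMP7 close by. MMP27 alone in this cluster had at least 1 UQRPKM in every library. MMP12, the macrophage elastase, was above 0 in CMT alone, with 1.47 UQRPKM. It rested there on at least 1 read, the smallest number that gives this value. MMP1 and MMP7 were listed at 0.

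Like MMP2, both TIMPs were lowest in CM. TIMP1 had 681 (IM), 562 (CM) and 698 (CMT) UQRPKM, with log2 ratios of -0.28 (-0.44 to -0.12) in CM versus IM and 0.31 (0.15 to 0.47) in CMT versus CM. TIMP2 had log2 ratios of -0.20 (-0.23 to -0.17) and 0.19 (0.16 to 0.22). For CMT/IM their ratios were 0.04 and -0.01 with intervals that included 0. All of these ratios lay under 1.5-fold.

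The RNA levels of enzyme and inhibitor can be compared within a library, where the scaling between libraries cancels. They do not give the balance of active enzyme and inhibitor protein. TIMP-3, which the name rule did not take, is left out here and described in the closing section. MMP2 was 1.65 times the level of TIMP2 in IM (95% interval 1.62 to 1.68), 1.63 times in CM (1.60 to 1.67) and 1.73 times in CMT (1.69 to 1.76). The values of IM and CM were within counting error of each other, and that of CMT lay above both. MMP2 was 7.88, 8.21 and 7.97 times the level of TIMP1, with overlapping intervals. MMP14 was 0.262, 0.254 and 0.242 times the level of TIMP2.

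Among the ADAMs, the most abundant enzymes stayed within 1.5-fold in the 3 libraries. ADAM10 and ADAM17, the main sheddases of Notch receptors and of tumour necrosis factor, had 318, 311 and 296 UQRPKM and 82.1, 81.2 and 92.0 UQRPKM, and the intervals of all their ratios included 0. ADAM15, the highest of the family, had 719 (IM), 565 (CM) and 572 (CMT) UQRPKM, with log2 ratios of -0.35 (-0.46 to -0.24) in CM versus IM and -0.33 (-0.44 to -0.22) in CMT versus IM. ADAM19 had 87.9, 63.9 and 73.7 UQRPKM, ADAM33 was between 54.1 and 62.5, and ADAM8, an enzyme of leukocytes, was between 9.41 and 10.1.

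ADAM28, which is made by lymphocytes and epithelial cells, was lowest in CM. It had 6.11 (IM), 2.67 (CM) and 9.88 (CMT) UQRPKM, resting on 24, 10 and 38 reads. The log2 ratio was -1.19 for CM/IM (-2.42 to -0.08) and 1.89 for CMT/CM (0.85 to 3.06), so the direction is set by few reads.

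ADAM11, ADAM22 and ADAM23 lack protease activity and are best known from the nervous system. ADAM22, a receptor of LGI proteins at synapses, had 16.0 (IM), 14.8 (CM) and 24.3 (CMT) UQRPKM, resting on 85, 75 and 127 reads. Its log2 ratio was 0.72 for CMT/CM (0.30 to 1.15) and 0.61 for CMT/IM (0.20 to 1.02). ADAM23 was between 9.71 and 12.7 UQRPKM, and ADAM11 had at most 6 reads in a library. The 9 ADAMs known from testis or epididymis (ADAM2, ADAM5, ADAM7, ADAM18, ADAM20, ADAM21, ADAM29, ADAM30 and ADAM32) summed to between 1.08 and 3.27 UQRPKM, and the most reads were 10, for ADAM7 in CMT.

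The ADAMTS enzymes that cut proteoglycans such as aggrecan and versican included a pair of genes that were more than 1.5-fold higher in the library of intact pigs than in both libraries of castrated pigs. ADAMTS4, aggrecanase-1, had 222 (IM), 111 (CM) and 108 (CMT) UQRPKM, resting on 1241, 590 and 591 reads. The CM/IM difference in level was -50.1%, with a log2 interval of -1.15 to -0.86, and the log2 ratio was -1.04 for CMT/IM (-1.18 to -0.90), while CM and CMT were alike within counting error (-0.04, interval -0.20 to 0.13). ADAMTS1, which also restrains the growth of vessels, had 91.8, 46.4 and 54.0 UQRPKM resting on 274, 132 and 158 reads. Its log2 ratio was -0.98 for CM/IM (-1.29 to -0.68) and -0.76 for CMT/IM (-1.06 to -0.48).

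The level of these 2 genes was thus higher in IM than in the castrated libraries with and without testosterone. IM was also the library with the highest keratinocyte genes, a list of 3 that summed to 90.6 (IM), 0 (CM) and 3.54 (CMT) UQRPKM, and their part in the result was not tested. The same pattern, a 1.5-fold higher level in IM than in both others, was shown by 4.22% of the 13858 mRNA genes at 1 UQRPKM or more in all libraries. ADAMTS9, which cuts versican, was graded, with 200.5 (IM), 150.0 (CM) and 123 (CMT) UQRPKM. It passed the 1.5-fold limit in CMT versus IM alone, with a log2 ratio of -0.71 (-0.82 to -0.60), whereas its ratio in CM versus IM was -0.42 (-0.52 to -0.32). ADAMTS15 had 165, 131 and 116 UQRPKM and stayed under the limit.

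Other proteoglycan-cutting members did not share this order. ADAMTS5, aggrecanase-2, had 112 (IM), 123 (CM) and 135 (CMT) UQRPKM, with log2 ratios between 0.13 and 0.27. ADAMTS4 was therefore 1.98 times the level of ADAMTS5 in IM (1.82 to 2.16), 0.902 times in CM (0.814 to 0.999) and 0.800 times in CMT (0.724 to 0.884). ADAMTS20 had 43.1, 34.0 and 44.0 UQRPKM. ADAMTS8 was low, with 5.99, 10.1 and 8.53 UQRPKM resting on 33, 53 and 46 reads, and its CM/IM log2 ratio was 0.75 (0.10 to 1.43). The sum of the 7 proteoglycan-cutting enzymes was 840 (IM), 605 (CM) and 588 (CMT) UQRPKM. In the RefSeq order ADAMTS1 and ADAMTS5 have 2 genes between them, and ADAMTS8 and ADAMTS15 are direct neighbours, and in each pair the CM/IM ratios had opposite signs.

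ADAMTS18, an enzyme known from the development of the eye, had the largest ratio of the set in CM versus IM. It had 22.1 (IM), 114 (CM) and 38.6 (CMT) UQRPKM, resting on 35, 173 and 60 reads. The log2 ratio was 2.37 for CM/IM (1.84 to 2.94), -1.57 for CMT/CM (-2.02 to -1.14) and 0.81 for CMT/IM (0.18 to 1.45). CM was thus high against both other libraries, and IM was low against both. Its recovered gene length was 1065 bases, the shortest of the 19 ADAMTS genes. The CM library also had the highest levels of the hepatocyte genes other than APOA1, such as ALB (10, 10612 and 15 reads), and of the 3 S100 genes listed for neutrophils. The part of these cells in ADAMTS18 was not tested.

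Among the procollagen N-proteinases, which remove the amino-terminal propeptide of fibrillar procollagens, ADAMTS2 was the highest of the whole ADAMTS family. It had 538 (IM), 508 (CM) and 514 (CMT) UQRPKM, with log2 ratios between -0.08 and 0.02. ADAMTS14 had 11.6, 10.5 and 7.23 UQRPKM and a log2 ratio of -0.69 for CMT/IM (-1.19 to -0.19), and ADAMTS3 had at most 21 reads. Against COL1A1, a substrate, the level of ADAMTS2 was 0.121 (IM), 0.227 (CM) and 0.199 (CMT) times. COL1A1 had 4453, 2235 and 2580 UQRPKM on a recovered length of 1480 bases. Its partner COL1A2 had 10573, 7863 and 8309 UQRPKM, which is a smaller difference. COL3A1, another listed substrate, had 43498, 46011 and 39816 UQRPKM and was highest in CM. The size of the difference in the ADAMTS2 ratio thus depends on the collagen it is set against. COL1A2, like COL1A1, was lower than in IM by a larger factor than ADAMTS2, in both CM and CMT. COL3A1 was higher in CM than in IM.

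Of the remaining ADAMTS genes, ADAMTS13, ADAMTS16 and ADAMTS6 were called lower in CMT versus IM. ADAMTS13, which cuts von Willebrand factor, had 57.1 (IM), 43.3 (CM) and 34.7 (CMT) UQRPKM, and ADAMTS16 had 67.4, 48.8 and 40.3. Their log2 ratios in CMT versus IM were -0.72 (-0.95 to -0.48) and -0.74 (-0.95 to -0.54). ADAMTS6, which acts on microfibrils, had 11.2, 9.77 and 5.84 UQRPKM resting on 100, 83 and 51 reads, with log2 ratios of -0.94 for CMT/IM (-1.46 to -0.44) and -0.74 for CMT/CM (-1.28 to -0.22).

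The enzymes that cut cartilage oligomeric matrix protein stayed under the 1.5-fold limit. ADAMTS12 had 413, 369 and 316 UQRPKM, and ADAMTS7 had 49.6, 34.3 and 44.7. ADAMTS10 was between 130 and 153 UQRPKM and ADAMTS17 between 14.7 and 19.2, also without a call. ADAMTS19 had 13, 3 and 15 reads and was under 1 UQRPKM in CM. As a family, the 19 ADAMTS genes summed to 2185 (IM), 1893 (CM) and 1751 (CMT) UQRPKM.

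The ADAMTSL proteins, which help to organise microfibrils, split by member. ADAMTSL1 had 8.39 (IM), 5.14 (CM) and 16.6 (CMT) UQRPKM, resting on 48, 28 and 93 reads. CMT was the high library, with log2 ratios of 1.69 versus CM (1.07 to 2.36) and 0.98 versus IM (0.47 to 1.52), and the ratio of CM versus IM, -0.71, had an interval that only just left out 0 (-1.44 to -0.01). ADAMTSL3 had 49.0, 39.3 and 65.1 UQRPKM, with a log2 ratio of 0.73 for CMT/CM (0.54 to 0.92).

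ADAMTSL2, whose gene is mutated in geleophysic dysplasia, went the other way and was low in CMT, with 9.54, 9.05 and 5.06 UQRPKM resting on 52, 47 and 27 reads. Its log2 ratio was -0.84 for CMT/CM (-1.58 to -0.13) and -0.92 for CMT/IM (-1.64 to -0.22). ADAMTSL4, the most abundant of the family, was between 142 and 150.0 UQRPKM in all libraries, and ADAMTSL5 had at most 26 reads.

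**Figure D4:**
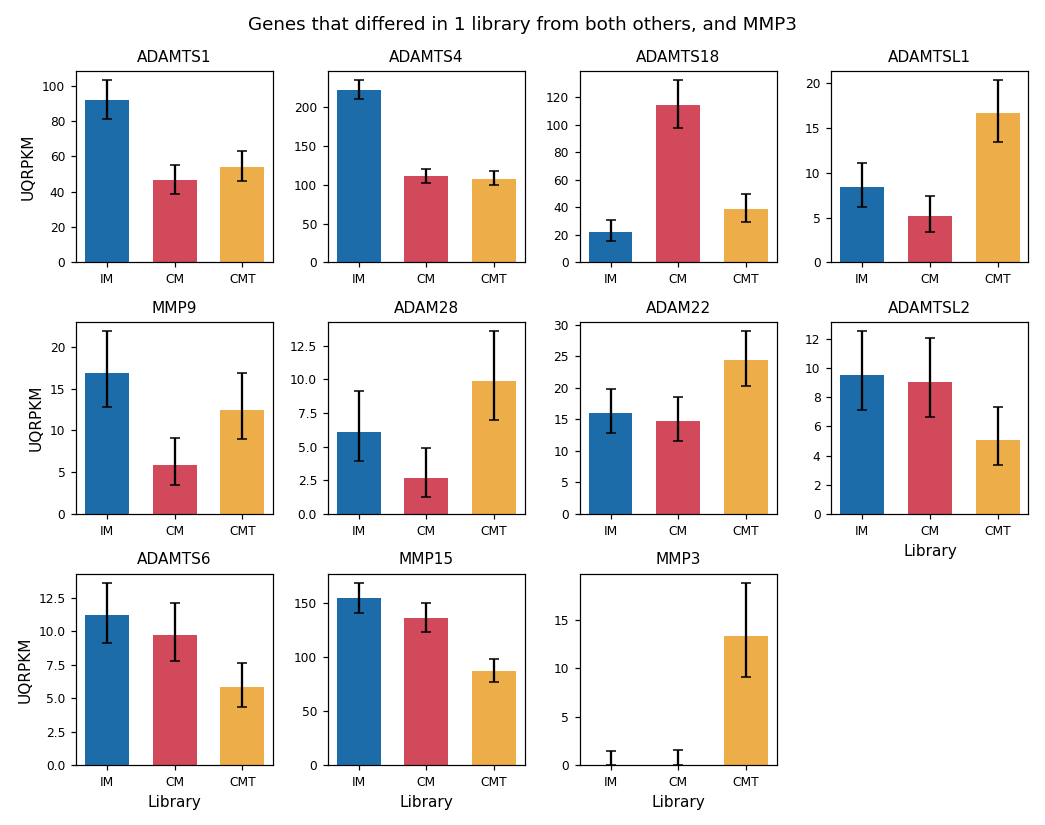
Levels of the 10 genes that differed 1.5-fold or more between 1 library and both others, and of MMP3. Bars are UQRPKM values from 0, with 1 bar per library, and error bars are exact 95% Poisson intervals for counting error only. ADAMTS1 and ADAMTS4 are high in IM, ADAMTS18 in CM, and ADAMTSL1, ADAM28, ADAM22 and MMP3 in CMT.

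Counted over the set, CM was low against both other libraries for 3 of 42 genes (MMP9, ADAM28 and ADAMTSL1), beside 4.23% of all mRNA genes. CM was high against both for ADAMTS18 alone, beside 3.48%. IM was low against both for the same gene alone, beside 3.54%. CMT was high for ADAMTSL1, ADAM28 and ADAM22, beside 3.84%, and low for MMP15, ADAMTS6 and ADAMTSL2, beside 4.88%. The genes high or low in CMT stood in the library with the highest skeletal muscle and mesothelial genes, and the part of those tissues in them was not tested. ADAMTSL1 and ADAM28 appear under both CM and CMT because IM lay between them. The exact binomial test on reads did not call ADAM28 or ADAMTSL1 in CM versus IM, ADAM28 in CMT versus IM, or ADAMTSL2 in CMT versus CM.

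Genes that act with these proteases were followed from 5 lists, which held 43 symbols of which 39 were found. In each comparison 32 of them reached 1 UQRPKM in both libraries. In CM versus IM 0 were called higher and 2 lower, in CMT versus CM 1 higher and 1 lower, and in CMT versus IM 3 higher and 3 lower. These shares of 0%, 6.25%, 3.12%, 3.12%, 9.38% and 9.38%, in the same order, lay at or below those of all mRNA genes given above, except 9.38% higher in CMT versus IM beside 8.81%. All but 1 of these calls had an interval that left out a ratio of 1.

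The plasminogen system makes plasmin, which activates several MMPs. PLAU, the urokinase activator, had 243 (IM), 192 (CM) and 149.96 (CMT) UQRPKM, with a log2 ratio of -0.70 for CMT/IM. Its receptor PLAUR had 68.8, 74.2 and 42.2 UQRPKM and was lower in CMT than in both others, with log2 ratios of -0.81 versus CM and -0.70 versus IM. PLAT, the tissue-type activator, was between 495 and 611 UQRPKM. PLG, which is made by the liver, had 0 (IM), 688 (CM) and 2 (CMT) reads, so it was high in the library where 6 of the 7 hepatocyte genes were highest, and their part in it was not tested.

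Among other regulators, RECK, a membrane-anchored MMP inhibitor, had 39.8, 38.5 and 50.1 UQRPKM and was not called. LRP1, the receptor that clears MMPs and their complexes from outside the cell, had 1165 (IM), 765 (CM) and 1003 (CMT) UQRPKM, with a log2 ratio of -0.61 for CM/IM. THBS1, a matrix protein that binds MMPs, had 257, 195 and 469 UQRPKM. It was high in CMT against both other libraries, with log2 ratios of 1.27 versus CM and 0.87 versus IM. None of the 7 measured cathepsins and cystatins was called in any comparison.

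The astacin group included PCOLCE2, an enhancer of procollagen C-proteinase, which had 772, 961 and 1188 UQRPKM and a log2 ratio of 0.62 for CMT/IM. BMP1, that proteinase itself, was between 496 and 611 UQRPKM. Of the 12 matrix substrates tested, COL1A1 alone was called, with log2 ratios of -0.99 for CM/IM and -0.79 for CMT/IM, while the median of the list in CM versus IM was -0.30. VCAN, a proteoglycan substrate of the ADAMTS enzymes, was between 26.8 and 31.5 UQRPKM and was not called. ACAN, another, had 7, 7 and 12 reads and was under 1 UQRPKM in IM and CM, so it could not be called. The 7 stromal genes, listed for the cells that make much of this matrix, had a median log2 ratio of -0.05 for CM/IM. They ranged from -0.99 (COL1A1) and -0.46 (CD34) to 0.08 (COL3A1) and 0.09 (PDGFRA). COL1A1, COL3A1, DCN and LUM were in the substrate list too. The median of the endothelial genes was -0.32.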

How the data were processed

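RNA-Seq libraries of pooled VAT RNA, 1 per group, were read single-end by Ion Proton sequencing. The authors removed adaptors and poor reads, mapped the remainder to Sscrofa10.2 with MapSplice and deposited UQRPKM, which is RPKM scaled by the upper quartile of each library. The read counter and the annotation are not given in the sources used here. From the steps between low values, upper quartiles of 149, 142 and 146 reads were found for IM, CM and CMT. Reads and gene length were then taken as the smallest whole numbers that gave the deposited values of a gene in all libraries, with a largest relative error of 7.65e-09. Where the reads of a gene share a factor, they are too low and the interval too wide. Ratios are log2 of UQRPKM with no pseudocount. Genes at 1 UQRPKM or more in both libraries and past 1.5-fold, the fold and level limits of the study's methods without its test, were called. The scripts (Python 3.11.15, SciPy 1.17.1, pandas 2.3.3) were tested on simulated data. The 27 named genes were both TIMPs, genes called with an interval that left out a ratio of 1, and the 3 most abundant of each other family. Other pathway genes were counted, and named where called with such an interval, with some added for context after their values were seen. The genes and lists were chosen with earlier results of these data known. No sequence or coordinate is given, since the gene table at hand (57 of 63 symbols matched) is of another build. Alternatives were the scaling, a pseudocount, the filters, the fold and an exact binomial test on reads.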

Additional observations from a re-analysis of the deposited data

How the results depend on the processing

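With 1 library per group no replicate could be left out. No paired analysis was possible because each group has a single library. A fold of 2 gave 1 higher and 3 lower genes in CM versus IM (from 2 and 5), 3 and 1 in CMT versus CM (from 7 and 4) and 0 and 1 in CMT versus IM (from 5 and 9). Here ADAMTS1 was lost in CM versus IM, where it was 1.98-fold lower, and in CMT versus IM, where it was 1.70-fold lower. ADAMTS4 was kept in both. The exact binomial test on reads, with Benjamini-Hochberg adjustment over all mRNA genes with reads to under 0.05, compares libraries and not conditions. It left 1 higher gene (ADAMTS18) and 3 lower genes (MMP9, ADAMTS1 and ADAMTS4) in CM versus IM. In CMT versus IM it left 3 higher genes (ADAMTSL1, ADAMTS18 and ADAM22), and all 9 lower genes of CMT versus IM remained. In CMT versus CM it left 5 higher genes, without ADAMTS3 and ADAM7, and 3 lower ones, without ADAMTSL2. Without a minimum above 0, 4 genes were higher and 6 lower for CM/IM, and 10 were higher for CMT/CM and 8 for CMT/IM. The added genes rested on few reads. A pseudocount of 1 left 3 higher genes in CMT versus IM. Scaling to the total UQRPKM shifted all ratios by 0.02 to 0.04 and added 1 call, MMP16 higher in CMT versus IM on 11 and 16 reads. Among the 27 named genes it moved the ratios of MMP2 (0.10) and TIMP2 (0.03) in CMT versus IM out of their counting intervals, and no others. The medians kept their sign under the scaling, the pseudocount and both filters. The one for CMT/IM ran from -0.14, with at least 10 UQRPKM in 1 library, to -0.01 without a minimum, so its size rests on the filter.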

Other observations

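Some relatives were spelled in a way that the name rule did not take, and they were not counted above. TIMP-3, the inhibitor that binds to the matrix itself, had 2200 (IM), 1932 (CM) and 1898 (CMT) UQRPKM, a level below those of MMP2 and TIMP2 and above that of MMP14. Its log2 ratio was -0.19 for CM/IM and -0.03 for CMT/CM, where TIMP1 and TIMP2 had 0.31 and 0.19. TIMP-4, an inhibitor known from heart and fat, had 147, 116 and 129 UQRPKM resting on 186, 140 and 160 reads. ADAM-9 was between 96.9 and 106 UQRPKM and MMP23B between 120 and 138. ADAMDEC1, an ADAM-like enzyme of macrophages and dendritic cells, had 5, 18 and 13 reads and a log2 ratio of 1.92 for CM/IM. MMP-13 and ADAM3A were listed at 0 in every library.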
